A study of Rattus norvegicus with 12 samples.

Results

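The fibrillar collagen genes Col1a1 (ENSRNOG00000003897), Col1a2 (ENSRNOG00000011292) and Col3a1 (ENSRNOG00000003357) were followed in urethral tissue of male rats. They were taken by Ensembl gene ID from a table of read counts, and all 3 were found among its 32623 gene IDs and passed the filter on low counts with 17521 genes in all. The symbols are those named together with the IDs when the genes were chosen. The gene table used here holds each of the 3 symbols but 0 of the IDs in the count table, so the pairing of ID and symbol was not checked independently. Messenger RNA was sequenced in 4 groups, each with 3 libraries. In the sham group the urethra was not injured. The other groups all carried a mechanical urethral injury, which was followed by no named treatment (injury), by rapamycin, or by tetrahedral DNA nanostructure (TDN). The sources used here give no strain, age, dose, route or time of harvest, and they do not say whether the untreated injury group received vehicle. They mention no scar, so "scar" is not used as a description of these tissues.

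Fibrillar collagens are the rope-like proteins that give connective tissue its tensile strength, and fibroblasts are their main source in most organs. Col1a1 encodes the alpha-1 chain and Col1a2 the alpha-2 chain of type I collagen, which join in 1 triple helix, while type III collagen is built from the Col3a1 chain alone. Types I and III occur together in the wall of the urethra, and their deposition is part of wound repair and of fibrosis. Rapamycin inhibits the mTOR kinase, a regulator of cell growth and protein synthesis, and TDN is a small cage folded from synthetic DNA strands.

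The 5′ flanking sequence of Col1a2 is shown because it is the regulatory sequence of a member that a RefSeq promoter table (build GRCr8) held. The stretch lies on the plus strand at chr4:33518307-33518416, and capitals mark the letters CCAAT read on the minus strand, followed by TATAAA on the plus strand.

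Col1a2: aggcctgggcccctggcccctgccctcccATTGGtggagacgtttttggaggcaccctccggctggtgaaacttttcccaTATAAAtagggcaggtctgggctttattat

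The table's start for Col1a2 lies at an ATG. The CCAAT match begins 221 bases and the TATAAA match 170 bases before it, and the bases that follow the printed stretch are left out because they may belong to the transcript. CCAAT was found on either strand in 34.0% of the 33469 windows of 250 bases in that table, TATAAA in 12.9% and both in 4.58%. The 2 motifs do not overlap in Col1a2. These matches describe letters, and no binding was measured.

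Total counts ranged from 44765817 to 55928721 per library. Rapamycin replicate 2 stood apart from the other 11 libraries. It had 17475 genes with a count, against 18659 to 19254, and a TMM scaling factor of 0.660, against 0.873 to 1.13. Fold changes that involve the rapamycin group are therefore given with and without it. In those comparisons the shares of genes without overlap include it. The spread was estimated over all 12 libraries together, so this library also entered the adjusted p-values of the other comparisons. Marker genes of fibroblasts, smooth muscle, urothelium, striated muscle, leukocytes, endothelium and blood were not evaluated, nor were the other collagen and collagen-processing genes, because their symbols could not be paired with the IDs.

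Col1a1 was the most counted gene in 9 of the 12 libraries and among the 10 most counted in all 12, without adjustment for transcript length. Levels are given in CPM, read counts relative to the TMM-scaled library size. The sham libraries held 27949, 13004 and 21538 CPM in replicates 1, 2 and 3, with a mean of 20830.4 ± 7497 (SD, n = 3). In injury the libraries held 16198, 13975 and 13453 CPM, a mean of 14542 ± 1458 (SD, n = 3). The injury values lay close together and inside the range of sham. In rapamycin the libraries held 17185, 9557 and 18620 CPM, a mean of 15120.5 ± 4871 (SD, n = 3), or 17902 without replicate 2. TDN libraries held 36003, 16168 and 18115 CPM, a mean of 23429 ± 10933 (SD, n = 3). The highest and lowest Col1a1 libraries of the study were therefore TDN replicate 1 and rapamycin replicate 2, and each group overlapped with every other, injury and TDN only at 16198 and 16168 CPM. By mean the order was TDN, sham, rapamycin and injury, and the 95% interval of every difference in that order, neighbours included, held 0.

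Col1a2, which supplies the second kind of chain in type I collagen, was at nearly the same mean level in sham and injury. Sham libraries held 9025, 5328 and 6940 CPM (mean 7098 ± 1853, SD, n = 3). Injury libraries held 7990, 6674 and 5318 CPM (mean 6660 ± 1336, SD, n = 3). The value was 8029, 1796 and 7257 CPM in rapamycin (mean 5694 ± 3398, SD, n = 3), and the mean was 7643 without replicate 2. In that library Col1a2 ranked 112th by count, whereas it ranked between 4 and 11 in the other 11 libraries. TDN libraries held 11897, 6710 and 7064 CPM (mean 8557 ± 2898, SD, n = 3). Apart from the high TDN replicate 1 and the low rapamycin replicate 2, the other libraries spanned 5318 to 9025 CPM with all groups intermingled. The order by mean was TDN, sham, injury and rapamycin, with no neighbours separated beyond their spread.

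Col3a1, the chain of type III collagen, showed the widest differences between the group means. Sham libraries held 20125, 9820 and 18047 CPM (mean 15997 ± 5449, SD, n = 3). The injury libraries held 6212, 10205 and 10335 CPM (mean 8917 ± 2344, SD, n = 3). TDN libraries held 25644, 14489 and 11999 CPM (mean 17378 ± 7267, SD, n = 3), so that injury and TDN did not overlap, as for 19.5% of all tested genes. Rapamycin libraries held 9453, 1944 and 12815 CPM (mean 8071 ± 5566, SD, n = 3), or a mean of 11134 without replicate 2. Rapamycin replicate 2 lay 3.20-fold below the lowest of the other 11 libraries for Col3a1, 2.96-fold for Col1a2 and 1.36-fold for Col1a1. In mean level the order was TDN, sham, injury and rapamycin. In bulk tissue, fewer collagen-producing cells and less collagen mRNA per cell cannot be told apart.

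**Figure D1:**
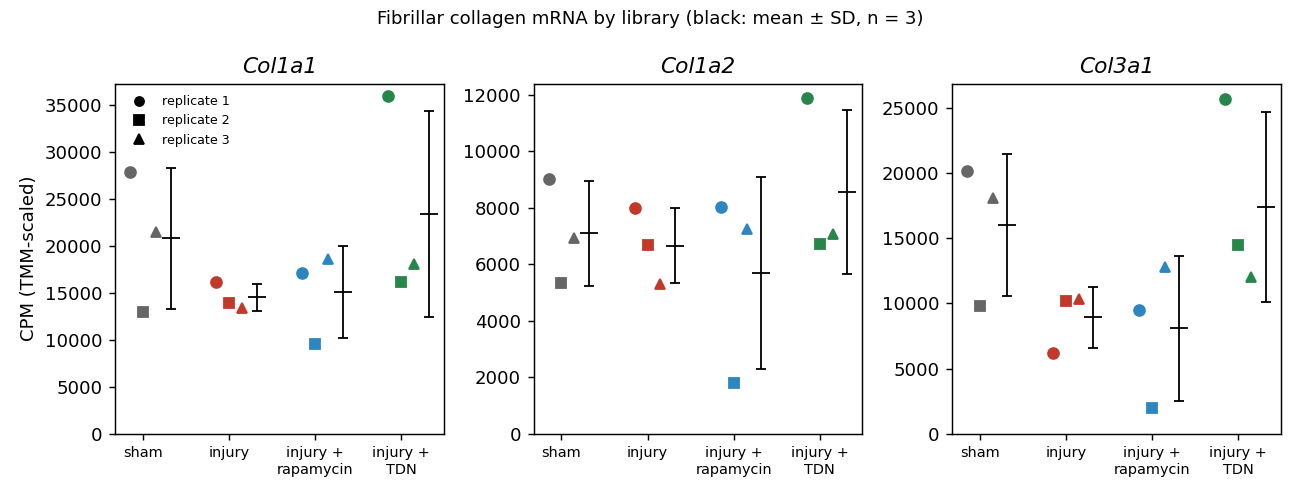
Level of each collagen gene (y axis, TMM-scaled CPM) in every library of the 4 groups (x axis), with the replicate number as marker shape and the group mean ± SD (n = 3) in black. TDN replicate 1 is the highest library for all 3 genes and rapamycin replicate 2 the lowest, and only for Col3a1 do all TDN libraries (11999 CPM or more) lie above all injury libraries (10335 CPM or less). Of all tested genes, 19.5% had no overlap between TDN and injury.

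As a sum, the 3 genes took up 6.11, 3.19 and 4.99% of all counts in sham, and 2.77, 3.07 and 3.18% in injury. For rapamycin the share was 3.02, 0.878 and 4.14%, and for TDN it was 7.48, 4.10 and 4.17%. Group means were 4.76 ± 1.47% (sham), 3.01 ± 0.21% (injury), 2.68 ± 1.66% (rapamycin) and 5.25 ± 1.93% (TDN; SD, n = 3 each). Injury lay below sham in every library, with a difference in means of -1.75 percentage points (exact two-sided permutation p = 0.1, the smallest that 3 against 3 libraries allow; adjusted over 6 pairs p = 0.3). This separation was slight: sham replicate 2 had a 95% Wilson interval of 3.19 to 3.20% and injury replicate 3 one of 3.18 to 3.19%, which overlap. When the share was taken of the TMM-scaled library size, sham (2.81 to 5.71%) and injury (2.91 to 3.08%) overlapped. All TDN libraries lay above all injury libraries by either measure (3.72 to 7.35% of the scaled size in TDN), with a difference of 2.24 percentage points (exact two-sided permutation p = 0.1, adjusted p = 0.3). The share in rapamycin differed from that in injury by -0.327 percentage points (exact two-sided permutation p = 0.8, adjusted p = 0.8), and by 0.575 without rapamycin replicate 2. Over the 4 groups the share gave an exact permutation p of 0.146 among all 15400 partitions of the libraries (adjusted over 3 such tests p = 0.330). Wilson intervals cover counting error only.

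**Figure D2:**
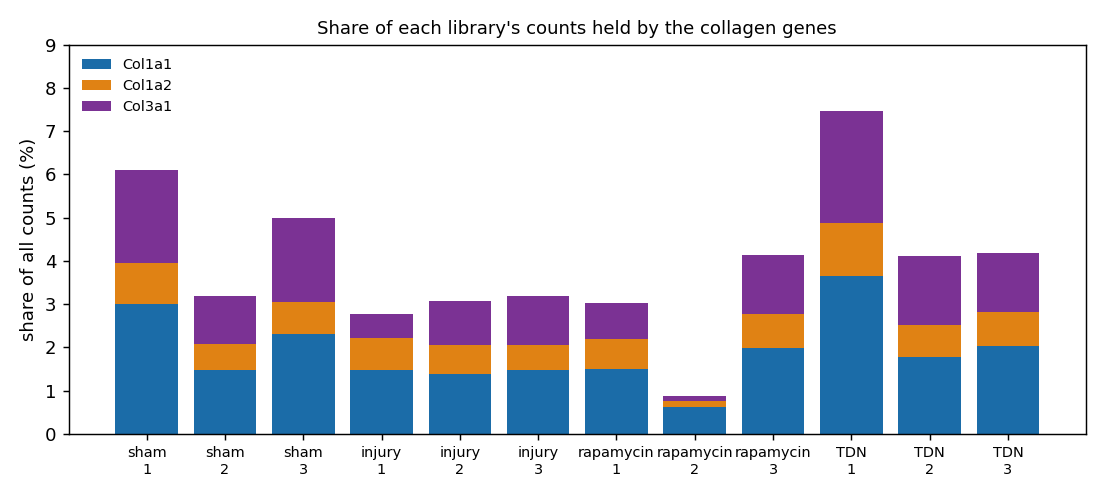
Share of each library's total counts (y axis, percent) held by Col1a1, Col1a2 and Col3a1, stacked, for the 12 libraries (x axis, group and replicate). The injury libraries stand at 2.77 to 3.18%, all TDN libraries at 4.10% or more, and rapamycin replicate 2 at 0.878%.

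Injury was compared with sham to ask whether collagen transcripts changed in the injured urethra. Col1a1 was at 0.698-fold of its sham level (95% interval 0.376 to 1.30; log2 fold change -0.52, SE 0.40; edgeR adjusted p = 0.431). Col1a2 was at 0.938-fold (95% interval 0.446 to 1.97; edgeR adjusted p = 0.915), and its direction turned when sham replicate 1 or injury replicate 3 was left out (log2 fold change 0.12 and 0.047). Col3a1 had the lowest estimate, 0.557-fold (95% interval 0.226 to 1.37; log2 fold change -0.84, SE 0.59; edgeR adjusted p = 0.384). None of the 3 genes passed, beside 114 of 17521 genes tested (0.651%), and none had groups that did not overlap, beside 42.3% of all genes. The median log2 fold change was -0.52 over the 3 collagen genes, which is the value of Col1a1 alone, and -0.013 over all genes tested. Without rapamycin replicate 2, which enters the same fit, edgeR called 1966 genes. The edgeR adjusted p was then 0.331 for Col1a1, 0.929 for Col1a2 and 0.137 for Col3a1. Increases above 1.30-fold for Col1a1, 1.97-fold for Col1a2 and 1.37-fold for Col3a1 lay outside the intervals of the fit to all libraries. These bounds depend on single libraries. Without sham replicate 1 the log2 fold change was -0.25 for Col1a1 and -0.64 for Col3a1, and without sham replicate 2 it was -0.73 and -1.06. No label ties a library to an animal, so the p-values reflect spread among libraries, part of which may be technical.

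TDN was compared with injury to ask whether collagen transcripts differed after treatment. All 3 genes had higher means in TDN. For Col3a1, the lowest TDN library (11999 CPM) lay above the highest injury library (10335 CPM), a feature shared by 19.5% of all genes. The Col3a1 estimate was 1.95-fold (95% interval 0.789 to 4.81; log2 fold change 0.96, SE 0.59; edgeR adjusted p = 0.649). The estimate for Col1a1 was 1.61-fold (95% interval 0.867 to 2.995; log2 fold change 0.69, SE 0.41; edgeR adjusted p = 0.649). Col1a2 stood at 1.28-fold (95% interval 0.610 to 2.70; edgeR adjusted p = 0.753). None of the 3 passed, and edgeR called 0% of all 17521 genes, with 1074 at an unadjusted p under 0.05. The count was 42 by DESeq2, 0 by limma voom and 6581 when voom weighted the samples by quality, and no tool called a collagen gene. Without rapamycin replicate 2, which enters the same fit, edgeR again called 0 genes. The edgeR adjusted p was then 0.309 for Col1a1, 0.482 for Col1a2 and 0.251 for Col3a1. TDN replicate 1 carried much of the difference: without it the log2 fold change was 0.24 for Col1a1, 0.049 for Col1a2 and 0.57 for Col3a1.

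TDN was also set against sham, to ask how near the treated tissue lay to uninjured tissue. Col1a1 was at 1.12-fold (95% interval 0.607 to 2.09), Col1a2 at 1.21-fold (0.573 to 2.54) and Col3a1 at 1.09-fold (0.443 to 2.66), each with an edgeR adjusted p of 1. Ranges of the 2 groups overlapped for all 3 genes, beside 32.6% of all genes without overlap. By edgeR, fitted over all groups together, 0% of all genes were called, with 930 at an unadjusted p under 0.05. DESeq2 called 311. Fitted to the TDN and sham libraries alone, edgeR called 993 genes, 617 of them higher in TDN. The edgeR adjusted p was then 0.791 for Col1a1, 0.555 for Col1a2 and 0.837 for Col3a1. The 0% therefore held for the fit over all groups, and does not show that the tissues were alike. The width of these intervals means that equal levels were not shown. Without TDN replicate 1 the 3 estimates lay below sham instead, at log2 fold changes of -0.28 for Col1a1, -0.043 for Col1a2 and -0.27 for Col3a1. Without sham replicate 2 those of Col1a1 (-0.053) and Col3a1 (-0.11) did so too.

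Rapamycin was compared with injury in the same way. Col1a1 stood at 1.04-fold (95% interval 0.561 to 1.93; edgeR adjusted p = 0.977), Col1a2 at 0.855-fold (0.406 to 1.80; edgeR adjusted p = 0.923) and Col3a1 at 0.905-fold (0.369 to 2.22; edgeR adjusted p = 0.958). The ranges overlapped for each gene, beside 3.94% of all genes without overlap. No gene of the table passed by edgeR (0%), with 767 at an unadjusted p under 0.05, 29 called by DESeq2 and 0 by limma voom. Without rapamycin replicate 2 the log2 fold change was 0.30 for Col1a1, 0.19 for Col1a2 and 0.32 for Col3a1, so the direction turned for Col1a2 and Col3a1. That library also had the fewest genes with a count and the lowest scaling factor, and their part in its collagen values was not tested.

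Against sham, the estimate for Col3a1 in rapamycin tissue was 0.505-fold (95% interval 0.204 to 1.25; log2 fold change -0.99, SE 0.59; edgeR adjusted p = 0.221). Col1a1 was at 0.726-fold (95% interval 0.391 to 1.35; edgeR adjusted p = 0.390) and Col1a2 at 0.802-fold (0.381 to 1.69; edgeR adjusted p = 0.625). In this comparison 12.3% of all genes passed and 52.3% had groups that did not overlap. Of the 3 collagen genes 0 did either, and 3 genes are too few to be set apart from these shares. Leaving out rapamycin replicate 2 brought the log2 fold change to -0.47 for Col3a1, -0.17 for Col1a1 and 0.16 for Col1a2. The edgeR adjusted p of Col3a1 was then 0.419, and 908 genes were called over the whole table. Leaving out rapamycin replicate 3 brought Col3a1 to -1.49, with an edgeR adjusted p of 0.0868. That fit called 7249 genes over the whole table, beside 2162 with all libraries.

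TDN and rapamycin, the treatments of the same injury, were compared directly. The estimate for Col3a1 in TDN was 2.15-fold that in rapamycin (95% interval 0.870 to 5.33; log2 fold change 1.11, SE 0.59; edgeR adjusted p = 0.248). Col1a1 was at 1.55-fold (95% interval 0.834 to 2.88; edgeR adjusted p = 0.307) and Col1a2 at 1.503-fold (0.713 to 3.17; edgeR adjusted p = 0.413). All 3 ranges overlapped, beside 38.5% of all genes without overlap, and edgeR called 0% of all genes, with 4260 at an unadjusted p under 0.05 and 1577 called by DESeq2. The log2 fold changes were 0.62 for Col3a1, 0.37 for Col1a1 and 0.14 for Col1a2 without rapamycin replicate 2. The edgeR adjusted p of Col3a1 was then 0.461, with 0 genes called. The lowest adjusted p of any collagen gene in any fit, 0.0852, was that of Col3a1 here without rapamycin replicate 3. That fit called 4788 genes over the whole table, beside 0% with all libraries.

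**Figure D3:**
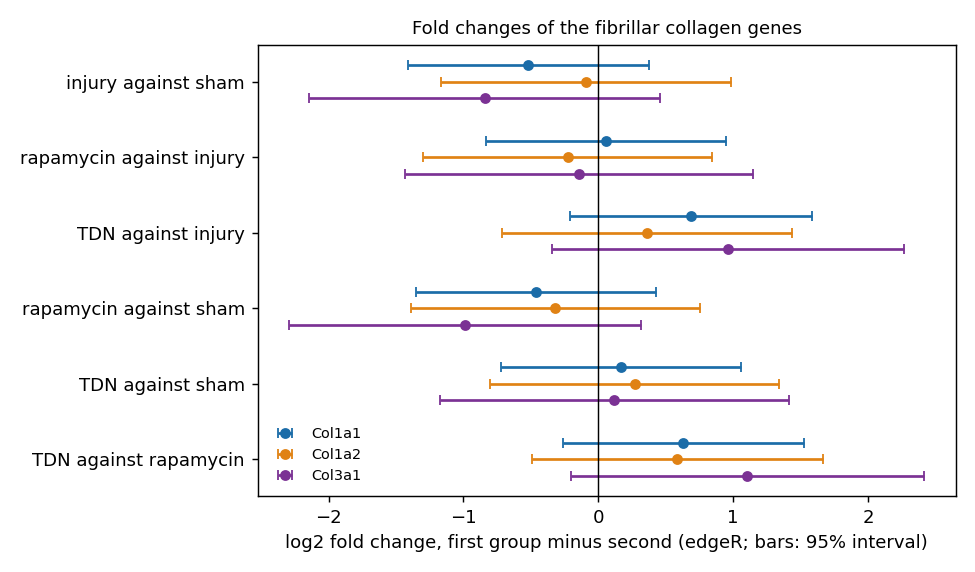
Estimated log2 fold change (x axis, first group minus second) of Col1a1, Col1a2 and Col3a1 in the 6 comparisons (y axis), with 95% intervals from the edgeR fit over 12 libraries. Every interval spans 0, and Col3a1 has the estimates farthest from 0, at -0.84 (injury against sham), 0.96 (TDN against injury), -0.99 (rapamycin against sham) and 1.11 (TDN against rapamycin).

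The ratio of 2 genes within a library does not depend on library size or scaling, so it shows whether the collagens differed in proportion. Counts were not adjusted for transcript length, and only differences between libraries can be read from the ratios. For Col3a1 to Col1a1 the ratio was 0.720, 0.755 and 0.838 in sham, and 0.384, 0.730 and 0.768 in injury. Injury replicate 1 thus had little Col3a1 for its Col1a1, while the other 2 injury libraries lay inside the sham range. Rapamycin libraries had 0.550, 0.203 and 0.688, all below every sham library, and TDN libraries had 0.712, 0.896 and 0.662. The geometric mean of rapamycin was 0.553-fold that of sham (exact two-sided permutation p = 0.1, the smallest possible; adjusted over 12 tests p = 0.48). The difference in log2 ratio was -0.85, and -0.32 without replicate 2. Over the 4 groups the exact permutation p was 0.220 (adjusted p = 0.330).

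For Col1a2 to Col1a1, the chains of type I collagen, the ratio was 0.323, 0.410 and 0.322 in sham and 0.493, 0.478 and 0.395 in injury. Rapamycin libraries had 0.467, 0.188 and 0.390, and TDN libraries 0.330, 0.415 and 0.390. The injury ratios were the higher on average, 1.30-fold those of sham, but sham replicate 2 lay above injury replicate 3 (exact two-sided permutation p = 0.2, adjusted p = 0.48). The 4-group test gave an exact permutation p of 0.498 (adjusted p = 0.498). Rapamycin replicate 2 was again the lowest library by a wide margin, so its collagen values were low by unequal amounts, least for Col1a1. The other 11 libraries lay between 0.322 and 0.493.

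**Figure D4:**
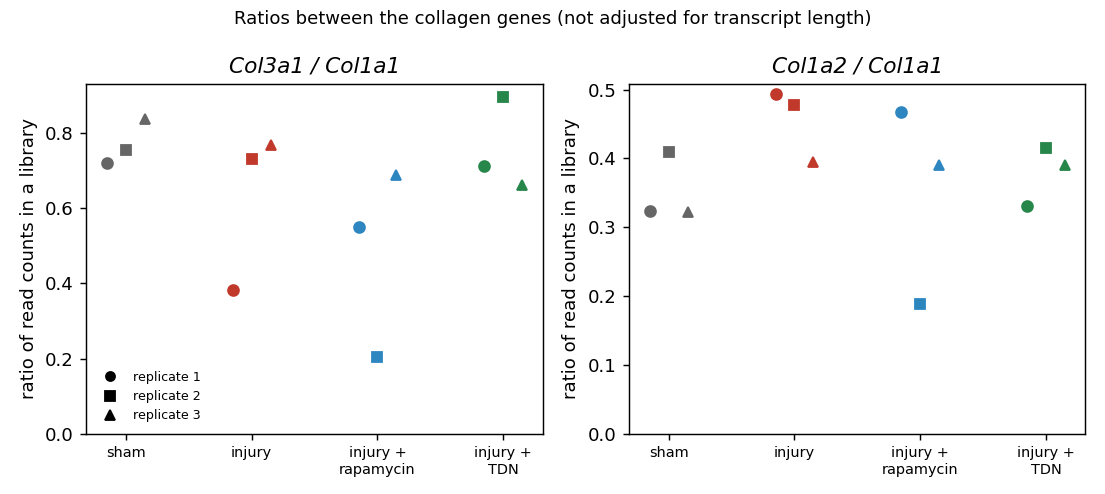
Ratio of read counts of Col3a1 to Col1a1 (left) and of Col1a2 to Col1a1 (right) in each library (y axis) by group (x axis), with the replicate number as marker shape. Rapamycin replicate 2 is lowest in both panels (0.203 and 0.188), and injury replicate 1 is next lowest for Col3a1 to Col1a1 (0.384).

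Collagen levels varied more between libraries of a group than those of the typical gene in sham and TDN, but not in every group. In sham the SD of log2 CPM was 0.56 for Col1a1, 0.38 for Col1a2 and 0.56 for Col3a1, where the median over all tested genes was 0.17. In TDN the values were 0.62, 0.46 and 0.57 beside a median of 0.19. Between 77.3 and 89.0% of genes had a smaller SD than the collagen gene in question in these 2 groups. In injury the order was the other way round, with 0.14 for Col1a1, 0.29 for Col1a2 and 0.42 for Col3a1 beside a higher median of 0.51. There 7.90% of genes had a smaller SD than Col1a1, 25.3% than Col1a2 and 40.4% than Col3a1. Rapamycin gave 0.53, 1.21 and 1.46 beside a median of 0.77, with 32.7, 71.3 and 79.0% of genes having a smaller SD. An SD from 3 libraries is imprecise, and these values were not tested.

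**Figure D5:**
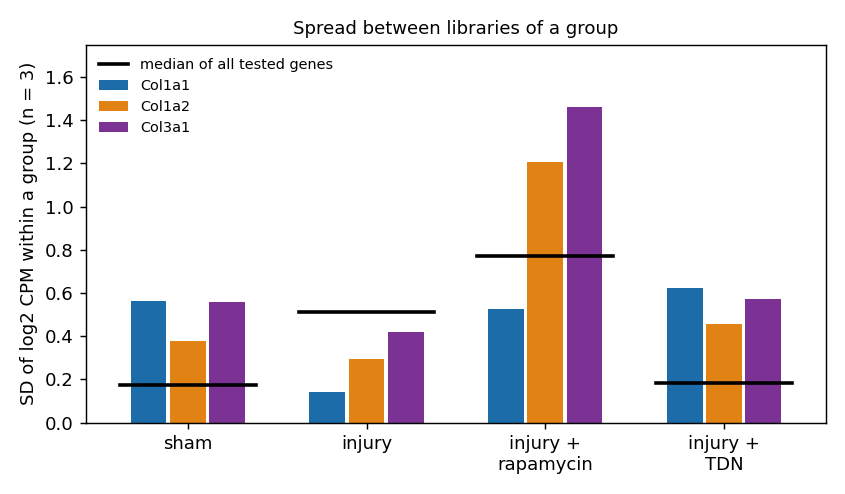
SD of log2 CPM among the 3 libraries of a group (y axis) for each collagen gene (bars) and the median SD over the 17521 tested genes (black lines), by group (x axis). All 3 genes exceed the median in sham and TDN and lie under it in injury, where Col1a1 has an SD of 0.14 beside 0.51.

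Much of this variation was shared by the 3 genes. In sham replicate 1 all 3 lay above their group mean, by 0.38 to 0.49 on the log2 scale, and in sham replicate 2 all 3 lay below it, by -0.38 to -0.64. TDN replicate 1 exceeded the mean of the other TDN libraries 2.10-fold for Col1a1, 1.73-fold for Col1a2 and 1.94-fold for Col3a1. Injury was the exception: in replicate 1 Col1a1 and Col1a2 were above their group mean by 0.16 and 0.28 while Col3a1 was below it, at -0.48. The groups accounted for 29.96% of the squared spread of log2 CPM for Col1a1, 21.4% for Col1a2 and 41.1% for Col3a1, beside a median of 45.3% over all tested genes. Smaller shares were held by 24.5, 14.7 and 42.2% of genes. With 3 libraries per group some share arises even where groups do not differ, and these shares were not tested. Within groups, deviations of Col1a1 and Col1a2 correlated at r = 0.840 over the 12 libraries, and at 0.944 over the 9 libraries outside the rapamycin group. For Col1a1 and Col3a1 the values were 0.784 and 0.756, and for Col1a2 and Col3a1 they were 0.873 and 0.569. Values of 1 library share its tissue piece, depth and scaling factor.

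Over all 12 libraries, Col1a1 correlated with Col1a2 at r = 0.826 and with Col3a1 at r = 0.836, and Col1a2 with Col3a1 at r = 0.865. Among the genes with a mean of at least 5 CPM, Col3a1 ranked 5th and Col1a2 8th in likeness to Col1a1. The ranks were far lower in the other direction, with Col1a1 at 502 and Col3a1 at 210 for Col1a2, and Col1a1 at 1694 and Col1a2 at 1124 for Col3a1. Without rapamycin replicate 2, Col3a1 and Col1a2 ranked 7 and 4 for Col1a1, Col1a1 and Col3a1 ranked 3 and 180 for Col1a2, and Col1a1 and Col1a2 ranked 41 and 3061 for Col3a1. The correlation of Col1a2 with Col3a1 was then 0.534. The mean log2 CPM of the 3 genes correlated with the number of genes detected at r = 0.764 and with the scaling factor at r = 0.666, and without rapamycin replicate 2 at 0.038 and 0.037. That relation therefore rested on 1 library.

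Of the other 11869 genes with at least 5 CPM, 114 had a mean correlation over 0.8 with the 3 collagen genes and 84 one under -0.8, where the median was 0.014 (12 libraries). Those most alike were ENSRNOG00000026604 and ENSRNOG00000008749, both with a mean r of 0.909. ENSRNOG00000008749 had means of 708 ± 178 CPM (sham), 426 ± 34 (injury), 482 ± 350 (rapamycin) and 847 ± 365 (TDN; SD, n = 3 each), the order of means seen for Col1a1. Genes of like pattern were picked by correlation over these same libraries, so a like order of means is no separate result. ENSRNOG00000026604 stood at 82.1 ± 20.20, 68.4 ± 4.0, 64.8 ± 26.5 and 84.3 ± 24.6 CPM in the same groups (SD, n = 3 each). The most opposed were ENSRNOG00000019930 (mean r of -0.874) and ENSRNOG00000018996 (-0.873). ENSRNOG00000019930 had means of 47.5 ± 2.8 CPM (sham), 54.7 ± 3.4 (injury), 58.3 ± 21.4 (rapamycin) and 47.2 ± 5.1 (TDN; SD, n = 3 each). No symbol is paired with any of these IDs. Without rapamycin replicate 2 the mean r was 0.830 and 0.831 for the first pair and -0.708 and -0.720 for the second.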

How the data were processed

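Messenger RNA of rat urethral tissue was sequenced from poly(A)-enriched Illumina libraries, per the labels' protocols, and per the submitters' processing notes the reads were aligned to Rnor 6.0. For each library the authors deposited raw counts by gene, without normalization. Aligner, counter, annotation and strandedness were not given in the sources used here. How reads shared by overlapping genes were counted is therefore not known. The table has 3 further library columns that match no labelled sample and were not used.

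Groups came from the treatment label. The 3 collagen genes, the lists and the tests were chosen with earlier results of these data known. The edgeR 4.0.16 quasi-likelihood test (R 4.3.3) was run on the whole table after edgeR's default filter (17521 of 32623 genes kept) and TMM scaling, with 1 coefficient per group over the 12 libraries. The common biological coefficient of variation was 0.504, with 8 residual degrees of freedom. Benjamini-Hochberg adjusted p-values cover all tested genes of a comparison, and calls were made under 0.05. The fit was tested on simulated data. Standard errors are the absolute log2 fold change over the square root of F, and 95% intervals use the t distribution. Log2 CPM used a prior count of 2. Ratios and shares were compared by exact permutation tests. Genes of like pattern were the 2 with the highest and the 2 with the lowest mean Pearson r with the 3 collagen genes among those with at least 5 CPM.

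Alternatives were other scalings, no filter, DESeq2 1.42.0, voom of limma 3.58.1 (also with sample quality weights), the 6 libraries compared alone, a replicate block and each library left out. For libraries with the same number, departures from their group means correlated at r = 0.107, 0.138 and 0.261 in injury and sham, all above the 0.1 taken as a sign of pairing. They correlated at 0.092, 0.156 and 0.550 in rapamycin and injury, and fell short of 0.1 in at least 1 pair of every other comparison. Pairing is not stated in the labels, and such correlations over genes that vary together cannot show it.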

Additional observations from a re-analysis of the deposited data

How the results depend on the processing

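No alternative brought a collagen gene past the adjusted threshold in any of the 6 comparisons (22 alternatives each, lowest adjusted p 0.0852), and the directions of Col1a1 and Col3a1 in injury against sham and in rapamycin against sham, and of all 3 genes in TDN against injury and TDN against rapamycin, were the same in all of them. Leaving out a library of a group not compared, or scaling without the collagen genes, moved the estimates little, so these tested direction weakly. The direction of each other pair of gene and comparison turned in at least 1 alternative. With sample quality weights the log2 fold change of Col1a2 was 0.045 in injury against sham, 0.13 in rapamycin against injury and 0.18 in rapamycin against sham. Col1a1 in rapamycin against injury was -0.073 with library size alone, -0.0084 with limma voom and -0.0038 with the replicate block. With the replicate block, injury against sham gave -0.43 for Col1a1, -0.036 for Col1a2 and -0.70 for Col3a1, and the block changed no collagen call. By medians, the log2 ratio of Col3a1 to Col1a1 was -0.036 in TDN against injury, and that of Col1a2 to Col1a1 was 0.27 in rapamycin against sham.

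Leaving out 1 library gave, for Col1a1, -0.12 to 0.30 in rapamycin against injury and -0.28 to 0.44 in TDN against sham. For Col1a2 it gave -0.24 to 0.12 in injury against sham, -0.58 to 0.19 in rapamycin against injury, -0.62 to 0.16 in rapamycin against sham and -0.043 to 0.48 in TDN against sham. For Col3a1 it gave -0.65 to 0.32 in rapamycin against injury and -0.27 to 0.33 in TDN against sham. The log2 ratio of Col3a1 to Col1a1 ranged from -0.84 to 0.038 in rapamycin against injury and from -0.16 to 0.054 in TDN against sham, and that of Col1a2 to Col1a1 from -0.37 to 0.29 in rapamycin against sham and from -0.18 to 0.48 in TDN against rapamycin. The summed share ranged from -1.06 to 0.575 percentage points in rapamycin against injury and from -0.626 to 1.16 in TDN against sham. The cause was not tested.

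The number of genes called over the whole table, the background of the collagen counts, ranged over all alternatives from 0 to 9322 in injury against sham (76 with the replicate block), from 0 to 29 in rapamycin against injury, from 0 to 6581 in TDN against injury, from 1 to 8440 in rapamycin against sham, from 0 to 1959 in TDN against sham and from 0 to 5993 in TDN against rapamycin. Scaling by library size alone moved the median of all genes to -0.14 in injury against sham, 0.10 in TDN against injury, -0.22 in rapamycin against injury, -0.37 in rapamycin against sham and 0.34 in TDN against rapamycin. Every library held at least 53059 counts of each collagen gene, so counting error was small beside the spread between libraries.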
